A study of Astyanax mexicanus with 6 samples.

Results

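The genes described here are the proteases that cut the extracellular matrix and cell surface proteins, and the inhibitors that hold them in check, in 2 liver-derived cell lines of the fish Astyanax mexicanus. They were chosen by gene symbol, with earlier results of these data known. The symbols are those of the matrix metalloproteinases (mmp and a digit), their tissue inhibitors (timp) and the ADAM and ADAMTS metalloproteases (adam and a digit, adamts). Further symbols are those of the serpins (serpin), plasminogen activators (plau, plat), A-type carboxypeptidases (cpa and a digit) and transmembrane serine proteases (tmprss). Of 27420 genes in the table, 99 carry such a symbol. SFL was derived from surface fish livers and CFL from livers of Pachón cavefish, in both cases from fish of about 5 months (150 days post fertilization). The Pachón fish were starved before dissection and the surface fish were not. Both lines are clones grown from single cells, kept in a medium with insulin, epidermal growth factor and fish and bovine serum, and passaged with a trypsin-like enzyme. In the early passages the medium also held embryo extract, made from surface fish for SFL and from Pachón fish for CFL. Poly(A) RNA of 3 libraries a line was sequenced. The library names carry passage 45 for SFL replicate 1, passage 46 for SFL replicates 2 and 3, passage 50 for CFL replicate 1 and passage 51 for CFL replicates 2 and 3. The 3 libraries of a line are therefore cultures of 1 clone, and p-values measure only the spread between such cultures. The paper also found CFL to be hyperdiploid with B chromosomes, while the modal chromosome count of SFL was that of the fish. From the B chromosomes it proposes a male donor for CFL, and the sex of SFL could not be tested. Morphotype, donor fish and its sex, clone, chromosome number, starvation, embryo extract and passage number cannot be told apart between the lines.

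Matrix metalloproteinases (MMPs) are zinc enzymes made as inactive precursors that degrade collagens and other matrix proteins, and TIMPs bind and block their active site. ADAMs sit in the membrane and shed the outer parts of receptors and growth factor precursors, while ADAMTS enzymes are secreted and trim proteoglycans and procollagens. Most serpins are traps for serine proteases, which cleave a loop of the serpin and stay bound to it. In liver, hepatocytes secrete the serpins of blood plasma, and stellate cells and fibroblasts are known for MMPs and TIMPs.

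Values are TPM, which is transcript abundance per length and scaled to a fixed total within a library, as estimated by RSEM. No read counts come with TPM, which leaves sequencing depth unknown and counting error without an estimate. A library had 13254 to 13721 genes at 1 TPM or above. Of 24 hepatocyte marker genes in the table, 0 had at least 1 TPM in all CFL libraries and 6 in all SFL libraries, and their sum was 1.27 to 3.95 TPM in CFL and 118 to 178 TPM in SFL. In SFL rbp4 (48.6 to 110 TPM), hp (10.1 to 41.3 TPM), cebpa (8.22 to 21.9 TPM) and tfa (2.86 to 14.6 TPM) led, and 7 of the 12 tested markers were called for SFL. Other defining markers were at or near 0 in both lines, with ttr listed at 0 in all 6 libraries, hnf4a at 0.04 TPM or less and fabp10a at 0.20 TPM or less. Of 14 leukocyte marker genes, 13 were below 1 TPM in all libraries. The 17 stellate cell and fibroblast marker genes summed to 3736 to 5211 TPM in CFL and 2616 to 6969 TPM in SFL, and the 14 cholangiocyte and simple epithelium genes to 1602 to 1868 TPM in CFL and 6559 to 8815 TPM in SFL. The keratins krt8, krt18a.1 and krt18b led the latter sum. Of 9 tested genes of that list, 5 were called for SFL, the keratins among them, and 2 for CFL. The latter were sox9a (27.6 to 49.4 TPM in CFL, 0.63 to 0.81 TPM in SFL) and hnf1bb (163 to 210 TPM in CFL, 2.29 to 12.3 TPM in SFL). epcam and cftr were at 0.08 TPM or less in all libraries. In bulk RNA, fewer cells that express a gene and less RNA per cell cannot be told apart.

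The 99 genes together took 0.374% to 0.574% of all TPM. Only 43 had a mean of at least 1 TPM over the 6 libraries, 31 had at least 1 TPM in every library, 48 were below 1 TPM in every library and 7 were listed at 0 throughout. The lines were compared with limma on log2(TPM + 1) over the 18489 genes that reached 0.2 TPM in 1 library or more, a filter that 62 of the 99 genes passed. A gene was called at an adjusted p under 0.05 (Benjamini-Hochberg over all 18489 genes) and a fold change of 2 or more. A positive log2 fold change means higher in SFL, its error is a standard error given after ±, and the added 1 shrinks the fold of genes with low TPM. This gave 12 of the 62 with more RNA in SFL and 4 with more in CFL, where the background over all tested genes is 11.7% higher in SFL and 8.88% higher in CFL (20.6% in either direction). Their median log2 fold change was 0.28, and that of all tested genes 0.07. The libraries of the lines did not overlap in 34 of the 62 genes, a share of 54.8%, near the background of 53.0%. Without SFL replicate 3 the median was 0.04, and the calls numbered 13 for SFL and 7 for CFL. An exact permutation test of 1 gene (two-sided, 3 libraries against 3) has 0.1 as its smallest p, so the p-values below rest on the limma model.

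**Figure D1:**
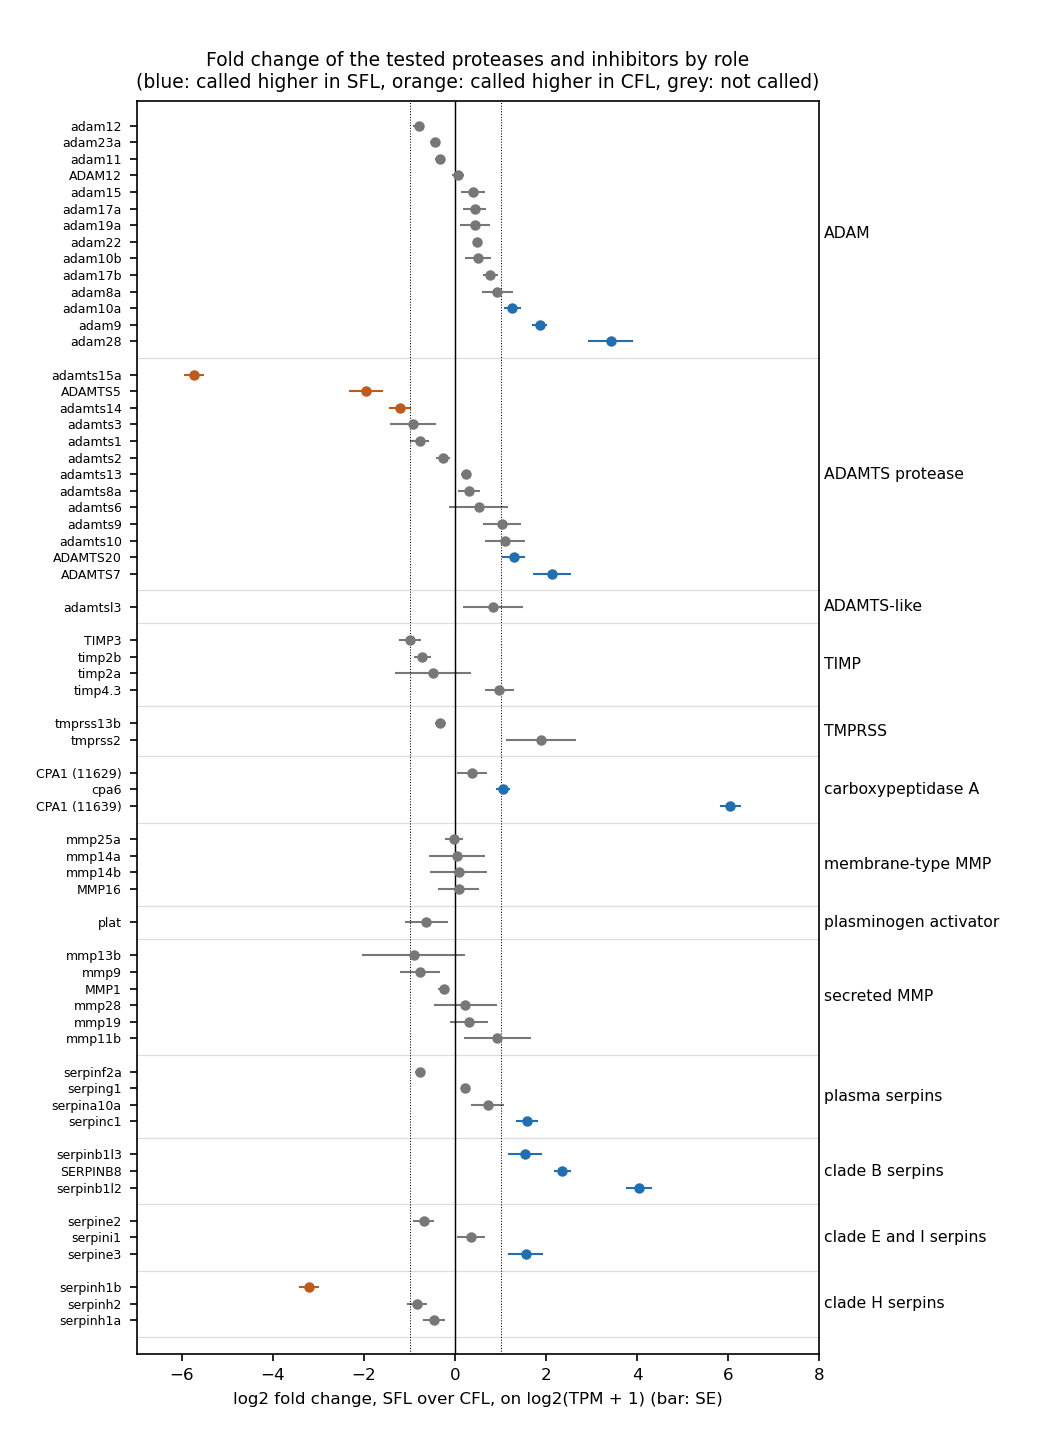
Each point is 1 of 61 tested genes, grouped by role, with its log2 fold change (SFL over CFL, on log2(TPM + 1)) on the x axis and its standard error as a bar; dotted lines mark a fold change of 2. The 12 genes called higher in SFL are blue and the 4 called higher in CFL are orange, and all 10 tested MMPs are grey.

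No MMP was called. None of the 10 tested MMPs (of 23 in the table) passed both thresholds, where the background over all tested genes is 20.6%. The median log2 fold change of the MMPs was 0.06, and 15 of the 23 stayed below 1 TPM in every library. The most abundant were mmp28, mmp13b and mmp14a. Values are given in the order of replicates 1, 2 and 3. mmp28 (ENSAMXG00000031171), the secreted metalloproteinase epilysin of epithelia, measured 85.5, 71.2 and 48.5 TPM over the CFL libraries and 23.6, 116 and 175 TPM over those of SFL. SFL replicate 1 lay below every CFL library and SFL replicate 3 above every one, for a log2 fold change of 0.23 ± 0.70 (limma adjusted p = 0.815). It was called only without SFL replicate 1, at a log2 fold change of 1.08 (limma adjusted p = 0.0489).

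mmp13b (ENSAMXG00000011509), a collagenase, spread most within SFL among genes of the set that reached 1 TPM in every library. It had CFL values of 38.6, 31.4 and 93.1 TPM and SFL values of 120, 32.0 and 3.52 TPM. The highest and the lowest of the 6 values were both SFL libraries, a 34.2-fold range inside a single clone, and the log2 fold change of -0.91 ± 1.13 (limma adjusted p = 0.553) was within that spread.

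mmp14a (ENSAMXG00000033354) and mmp14b (ENSAMXG00000020970) are the copies of the membrane-type metalloproteinase that cleaves collagen at the cell surface and activates other MMPs. mmp14a had 56.7, 36.7 and 41.0 TPM in the CFL libraries against 18.5, 41.0 and 122 TPM in the SFL libraries. mmp14b measured 16.9, 12.5 and 14.8 TPM over the CFL libraries and 7.54, 9.76 and 48.3 TPM over those of SFL. Both copies were lowest in SFL replicate 1 and highest in SFL replicate 3, with the CFL libraries between them. Their log2 fold changes were 0.05 ± 0.62 and 0.08 ± 0.63, and turned to -0.65 and -0.71 without SFL replicate 3. Each turned below 0 with other scaling or another library left out as well, so no direction can be given for mmp14a or mmp14b. The further MMPs with a mean of at least 1 TPM were mmp19 (16.2 TPM over the 6 libraries), mmp9 (ENSAMXG00000007722, a gelatinase, 6.61 TPM), MMP16 (4.26 TPM) and mmp11b (1.42 TPM), with log2 fold changes from -0.76 to 0.93 and overlapping libraries. Of these, mmp9 was called higher in CFL without SFL replicate 3.

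The TIMPs were the most abundant part of the set. timp2b (ENSAMXG00000015070) was the highest of all 99 genes, at rank 78 among all genes of the table in CFL and rank 115 in SFL. It had CFL values of 1779, 2291 and 2640 TPM and SFL values of 1293, 1374 and 1365 TPM. The lowest CFL library exceeded the highest SFL library, and the SFL libraries lay close together. This is a log2 fold change of -0.72 ± 0.19 (limma adjusted p = 0.0296), past the threshold for p and under that for fold. TIMP3 (ENSAMXG00000031361), the inhibitor that binds to matrix and also blocks ADAM17 in mammals, had 570, 602 and 536 TPM in the CFL libraries against 204, 293 and 391 TPM in the SFL libraries. Its libraries did not overlap either, at a log2 fold change of -0.99 ± 0.25 (limma adjusted p = 0.0235), just under the fold threshold, which it passed with median-ratio scaling (-1.1) and without SFL replicate 3 (-1.21). Over the 6 fits that leave out 1 library, the limma adjusted p of timp2b went from 0.0249 to 0.110 and stayed under 0.05 only without CFL replicate 1 or SFL replicate 3. That of TIMP3 went from 0.00692 to 0.0893 and stayed under 0.05 only without SFL replicate 1 or SFL replicate 3.

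timp2a (ENSAMXG00000032674), the other copy of TIMP2, did not follow timp2b. It measured 41.3, 26.3 and 23.2 TPM over the CFL libraries and 5.72, 17.9 and 80.9 TPM over those of SFL. The SFL libraries spanned a 14.2-fold range around the CFL libraries, and the log2 fold change of -0.48 ± 0.84 (limma adjusted p = 0.681) turned to 0.61 with the later passages alone. The copy made up 0.440%, 1.28% and 5.60% of the TPM of the pair in SFL replicates 1, 2 and 3, and 0.872% to 2.27% in CFL. timp4.3 stayed at 0.02 TPM or less in CFL and was at 0.58, 0.44 and 2.47 TPM in SFL (log2 fold change 0.97, limma adjusted p = 0.0555), and it was called with a pseudocount of 0.5 or 0.1.

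Since TPM is per length, the transcripts of inhibitors and enzymes can be set against each other within a library. The TIMPs summed to 2390, 2919 and 3199 TPM in CFL and to 1504, 1685 and 1839 TPM in SFL. The MMPs summed to 228, 171 and 229 TPM in CFL and to 184, 227 and 399 TPM in SFL. TIMP transcripts thus exceeded MMP transcripts in every library, 10.5, 17.1 and 13.95 times in CFL and 8.17, 7.42 and 4.61 times in SFL. The lowest ratio of CFL lay above the highest of SFL. timp2b made up 74.2% to 86.0% of the TIMP sum of a library. The ratio of timp2b to mmp14a overlapped between the lines, at 31.4, 62.5 and 64.4 in CFL and 70.0, 33.5 and 11.2 in SFL. These ratios describe RNA and were not tested.

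**Figure D2:**
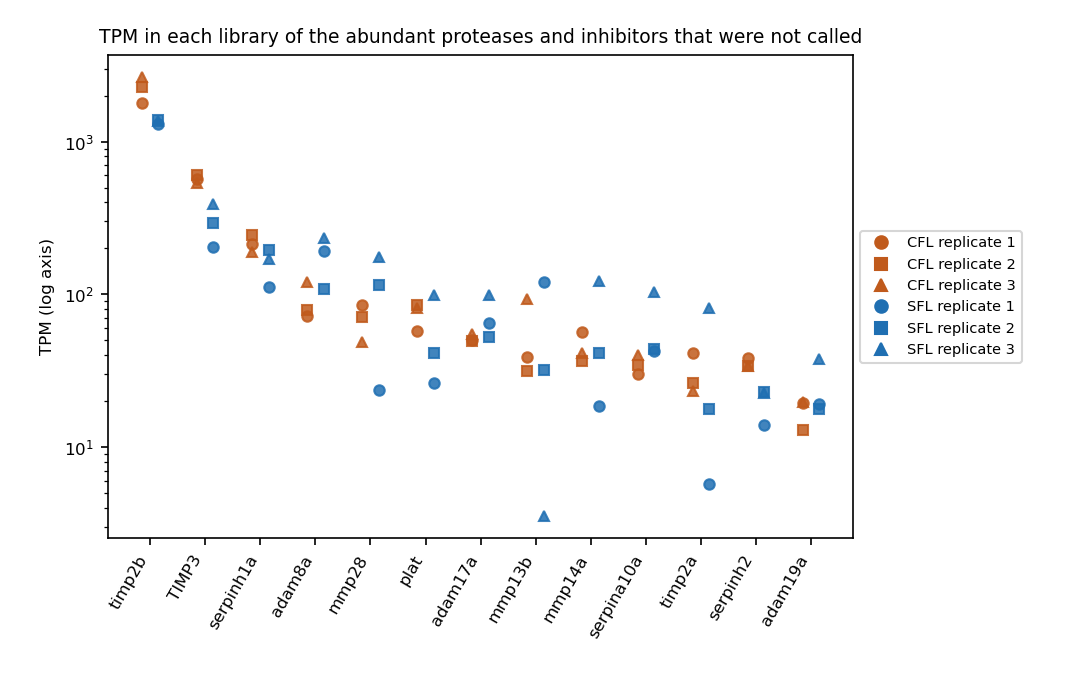
TPM (log axis) in each library of 13 genes that were among the 20 most abundant of the set and were not called; orange symbols are CFL and blue symbols SFL libraries, with a symbol shape for each replicate. timp2b, TIMP3 and serpinh2 show all CFL symbols above the SFL symbols, while mmp28, mmp13b, mmp14a and timp2a have SFL libraries on both sides of CFL.

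Among the 14 tested ADAM genes, 3 were called for SFL and 0 for CFL, at a median log2 fold change of 0.46. The called share of 21.4% was near the background of 20.6% over all tested genes. adam9 (ENSAMXG00000019687), a sheddase, varied little within either line. It had CFL values of 31.7, 35.0 and 40.4 TPM and SFL values of 130, 128 and 136 TPM. The SFL libraries differed by less than 1.07-fold among themselves and lay 3.68-fold above CFL in the mean (log2 fold change 1.86 ± 0.16, limma adjusted p = 0.00034). adam10a (ENSAMXG00000014786), a copy of the sheddase that cleaves Notch and cadherins, had 22.7, 20.2 and 22.5 TPM in the CFL libraries against 43.0, 56.7 and 63.0 TPM in the SFL libraries (log2 fold change 1.26 ± 0.19, limma adjusted p = 0.0034). Both genes kept their call without each library in turn.

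adam28 (ENSAMXG00000014073), which in mammals is known from lymphocytes and epithelia, had the largest log2 fold change of the ADAMs on the log2(TPM + 1) scale. It measured 2.67, 5.55 and 1.26 TPM over the CFL libraries and 30.4, 28.9 and 70.6 TPM over those of SFL. The means were 13.7-fold apart, with a log2 fold change of 3.42 ± 0.49 (limma adjusted p = 0.00266), and the 4.40-fold range within CFL did not reach the lowest SFL library. It stayed called in all 17 alternative settings.

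The sheddase ADAM17, which releases tumour necrosis factor and ligands of the epidermal growth factor receptor, has 2 copies here. adam17a (ENSAMXG00000017304) had CFL values of 50.6, 49.4 and 55.1 TPM and SFL values of 65.2, 52.8 and 99.1 TPM, with overlapping libraries (log2 fold change 0.43 ± 0.25, limma adjusted p = 0.217). adam17b had 15.8, 13.9 and 14.5 TPM in the CFL libraries against 22.1, 28.4 and 27.6 TPM in the SFL libraries (log2 fold change 0.78 ± 0.17, limma adjusted p = 0.0147, and up to 0.0726 with 1 library left out), so its libraries did not overlap and its fold was under 2. adam8a (ENSAMXG00000003629) was the most abundant ADAM, with 71.7, 78.3 and 121 TPM in the CFL libraries against 191, 108 and 232 TPM in the SFL libraries. CFL replicate 3 lay above SFL replicate 2, and without SFL replicate 2 the log2 fold change of 0.93 ± 0.34 (limma adjusted p = 0.0719) was 1.25 (limma adjusted p = 0.024). adam19a had CFL values of 12.95 to 19.6 TPM and SFL values of 17.8 to 37.9 TPM, and adam10b had 3.48 to 4.21 TPM in the CFL libraries against 4.13 to 9.39 TPM in the SFL libraries, neither with an adjusted p under the threshold. At a low level, adam12 (ENSAMXG00000011729) ran the other way, at 0.65 to 1.11 TPM in CFL and 0.07 to 0.09 TPM in SFL. Its log2 fold change of -0.80 missed the fold threshold (limma adjusted p = 0.00319), and it was called for CFL with a pseudocount of 0.5 or 0.1. With a pseudocount of 0.1, adam11 and adam23a were also called for CFL and adam22 for SFL, all at 0.70 TPM or less.

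ADAMTS proteases differed in both directions, and the gene with the largest difference was higher in CFL. Of 13 tested, 3 were higher in CFL and 2 in SFL, a called share of 38.5% beside the background of 20.6%. adamts15a (ENSAMXG00000029685), which belongs with the enzymes that cut the proteoglycans versican and aggrecan, measured 67.4, 41.9 and 56.7 TPM over the CFL libraries and 0.01, 0.05 and 0.08 TPM over those of SFL. It had the lowest log2 fold change of the 62 tested genes of the set, at -5.73 ± 0.22 (limma adjusted p = 2.25e-05), and made up 65.4% to 73.1% of the summed ADAMTS protease TPM of a CFL library but 0.232% or less of an SFL library. With a pseudocount of 0.1 its log2 fold change was -8.56, the SFL values lying far below 1. The 2 genes named adamts15b were at 0.05 TPM or less in every library, so the b copies were near 0 in both lines.

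ADAMTS5, an aggrecan-cutting enzyme of the same kind, was at 6.30, 2.01 and 4.37 TPM in CFL, was listed at 0 in SFL replicate 1 and had 0.14 and 0.81 TPM in the other SFL libraries (log2 fold change -1.95 ± 0.37, limma adjusted p = 0.00842). adamts14, which removes the N-terminal propeptide of procollagens, had CFL values of 3.55, 3.36 and 2.44 TPM and SFL values of 0.54, 0.49 and 1.45 TPM (log2 fold change -1.20 ± 0.24, limma adjusted p = 0.0101). With the later passages alone neither was called (limma adjusted p = 0.0695 and 0.0985). adamts1 had 0.90, 0.55 and 1.68 TPM in the CFL libraries against 0.11, 0.08 and 0.29 TPM in the SFL libraries, with a log2 fold change of -0.78 that missed the fold threshold (limma adjusted p = 0.028). With a pseudocount of 0.5 or 0.1 it was called.

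The ADAMTS genes called higher in SFL were low. ADAMTS7, which cuts cartilage oligomeric matrix protein, measured 0.06, 0.04 and 0.05 TPM over the CFL libraries and 1.96, 2.44 and 8.54 TPM over those of SFL (log2 fold change 2.13 ± 0.42, limma adjusted p = 0.00977). ADAMTS20 had CFL values of 0.37, 0.19 and 0.64 TPM and SFL values of 1.62, 2.13 and 3.76 TPM (log2 fold change 1.29 ± 0.25, limma adjusted p = 0.00896). In both genes SFL replicate 3 was the highest library. adamts9 had 0.02, 0.18 and 0.12 TPM in the CFL libraries against 3.51, 1.06 and 0.27 TPM in the SFL libraries. Its libraries did not overlap, and it was not called (log2 fold change 1.04 ± 0.42, limma adjusted p = 0.0987). With a pseudocount of 0.1 or without SFL replicate 3, adamts9 was called for SFL. adamts3 and adamts6, the next most abundant ADAMTS proteases after adamts15a, spread over 1.76 to 15.7 TPM and 2.34 to 21.6 TPM with overlapping lines. The ADAMTS-like gene adamtsl3, which has no protease domain, had 0.10 to 0.26 TPM in the CFL libraries against 0.09, 0.28 and 5.77 TPM in the SFL libraries, so that a single library set its mean (limma adjusted p = 0.357).

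**Figure D3:**
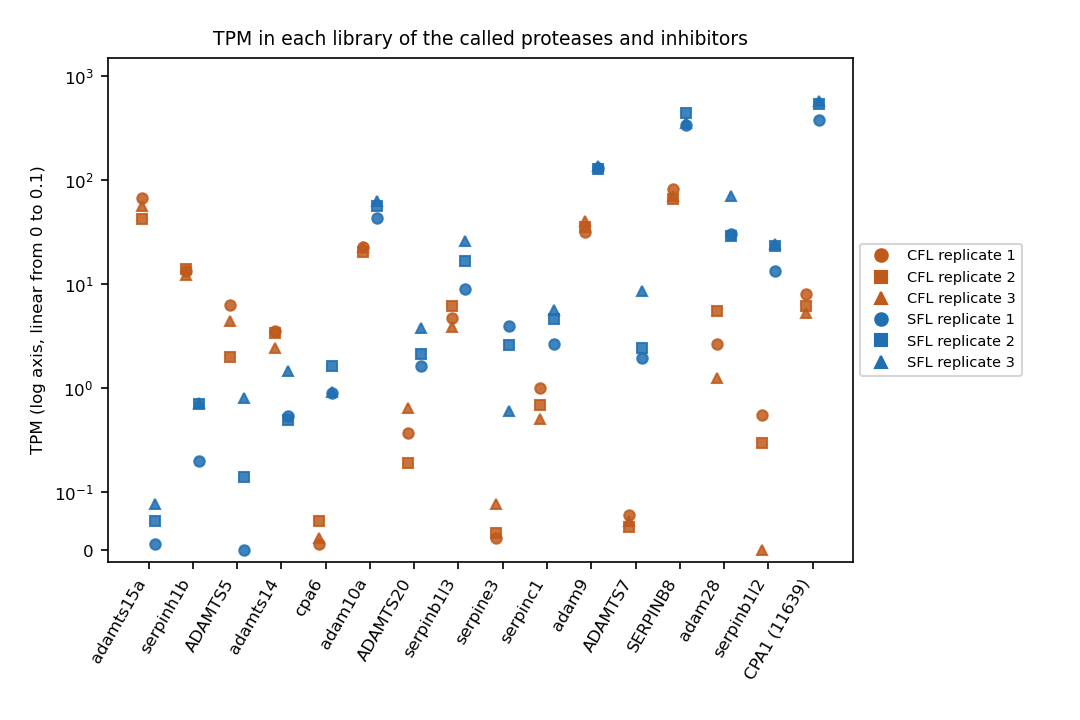
TPM of the 16 called genes in each library, on a log axis that is linear from 0 to 0.1 TPM; orange symbols are CFL and blue symbols SFL libraries, ordered by log2 fold change from adamts15a to CPA1. In each of the 16 genes all libraries of a line lie above those of the other, and adamts15a and CPA1 differ most.

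Of the plasminogen activators, only tissue plasminogen activator reached 1 TPM. plat (ENSAMXG00000013113), its gene, had CFL values of 57.8, 85.3 and 81.7 TPM and SFL values of 26.1, 41.0 and 98.6 TPM. Its log2 fold change of -0.63 ± 0.47 (limma adjusted p = 0.326) became -1.15 (limma adjusted p = 0.0222) without SFL replicate 3, the only SFL library above CFL. The urokinase gene plaua stayed at 0.03 TPM or less in all libraries.

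The clade E and I serpins described here were low. serpine3 had 0.02, 0.03 and 0.08 TPM in the CFL libraries against 3.95, 2.61 and 0.60 TPM in the SFL libraries (log2 fold change 1.55 ± 0.39, limma adjusted p = 0.0222). It was not called when any of the CFL libraries or SFL replicate 2 was left out (limma adjusted p up to 0.0744). serpine2, an inhibitor of thrombin and plasminogen activators, measured 0.81, 1.1 and 1.64 TPM over the CFL libraries and 0.05, 0.32 and 0.74 TPM over those of SFL (limma adjusted p = 0.0554), and serpini1, known from neurons as neuroserpin, had CFL values of 2.74 to 5.93 TPM and SFL values of 3.76 to 6.53 TPM.

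The clade H serpins are collagen chaperones of the endoplasmic reticulum and inhibit no protease. All 3 had a lower mean in SFL, and 1 was called for CFL, where the background over all tested genes is 8.88%. serpinh1b (ENSAMXG00000031437) had 13.4, 13.8 and 12.1 TPM in the CFL libraries against 0.20, 0.71 and 0.72 TPM in the SFL libraries. The CFL libraries agree within 1.14-fold and lie 24.1-fold above SFL in the mean (log2 fold change -3.21 ± 0.21, limma adjusted p = 0.00011). The abundant copy serpinh1a (ENSAMXG00000006432) measured 213, 245 and 188 TPM over the CFL libraries and 112, 196 and 169 TPM over those of SFL, with overlap (log2 fold change -0.46 ± 0.24, limma adjusted p = 0.182). serpinh1b therefore made up a small part of the pair in CFL, where serpinh1a held 94.0% to 94.7% of the TPM, against 99.6% to 99.8% in SFL. serpinh2 had CFL values of 38.0, 34.0 and 34.1 TPM and SFL values of 14.01, 22.9 and 22.5 TPM (log2 fold change -0.84 ± 0.22, limma adjusted p = 0.0286, and up to 0.0970 with 1 library left out), under the fold threshold. Of the 14 stellate cell and fibroblast markers tested, 2 were called for SFL and 3 for CFL. The collagen gene col1a1a was called for SFL, with 43.2 to 102.2 TPM in the CFL libraries against 194 to 386 TPM in the SFL libraries, and the fibronectin gene fn1a for CFL, with 2149 to 2729 TPM against 376 to 1099 TPM. The remaining calls were lrata for SFL and pdgfra and pdgfrb for CFL. Other collagen genes had lower means in SFL with overlapping libraries and were not called. These were col1a2, at 578 to 1132 TPM in CFL and 106 to 882 TPM in SFL (log2 fold change -1.31, limma adjusted p = 0.214), and col5a1, at 19.3 to 44.65 TPM in CFL and 5.28 to 21.7 TPM in SFL (-1.48, limma adjusted p = 0.0647). The part of such cells in the clade H values was not tested.

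Plasma serpins, secreted by hepatocytes in the liver, were mostly below 1 TPM. Of 8 clade A, C, D, F and G genes, 6 stayed below 1 TPM in every library, among them serpinf1, serping1 and serpinf2a, and serpind1 was listed at 0 throughout. serpina10a (ENSAMXG00000006926), a coagulation inhibitor, was the most abundant, with CFL values of 30.2, 34.4 and 40.0 TPM and SFL values of 42.2, 43.6 and 103 TPM. Its libraries did not overlap, but the gap from CFL replicate 3 to SFL replicate 1 was small against the spread (log2 fold change 0.72 ± 0.36, limma adjusted p = 0.165). serpinc1 (ENSAMXG00000018053), antithrombin, had 1.0, 0.69 and 0.51 TPM in the CFL libraries against 2.68, 4.63 and 5.63 TPM in the SFL libraries (log2 fold change 1.58 ± 0.25, limma adjusted p = 0.00428). serpinf2a, the plasmin inhibitor antiplasmin, ran the other way at a very low level, at 0.57 to 0.97 TPM in CFL and 0.02 TPM or less in SFL (log2 fold change -0.77, limma adjusted p = 0.00321), and was called with a pseudocount of 0.5 or 0.1. Of the 12 tested hepatocyte markers, 7 were called for SFL and 0 for CFL, beside 11.7% and 8.88% of all tested genes. Over SFL replicates 1, 2 and 3 the called markers had no common order. apoa2 rose as serpinc1 did (1.12, 2.87 and 3.69 TPM), while hp fell (41.3, 34.2 and 10.1 TPM). The part of hepatocyte markers in the level of serpinc1 was not tested. Of the coagulation proteases that antithrombin blocks, f2 and f10 were at 0.17 TPM or less in all libraries, and f9b was at 2.95 to 3.05 TPM in CFL and 0.15 to 0.33 TPM in SFL.

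All 3 clade B serpins, which stay inside cells and guard them from their own proteases, were higher in SFL. Over all tested genes 11.7% were called for SFL, and a share of 3 genes says little about a family. SERPINB8 (ENSAMXG00000043672), whose human counterpart inhibits furin, measured 81.2, 65.3 and 70.8 TPM over the CFL libraries and 335, 442 and 356 TPM over those of SFL. The means were 5.21-fold apart, with no library of a line over 1.32-fold from another of its line (log2 fold change 2.36 ± 0.18, limma adjusted p = 0.000204). serpinb1l2 (ENSAMXG00000040014) had 0.55 and 0.30 TPM in CFL replicates 1 and 2, was listed at 0 in CFL replicate 3, and had 13.4, 23.3 and 24.5 TPM in the SFL libraries (log2 fold change 4.04 ± 0.29, limma adjusted p = 0.00017). serpinb1l3 had CFL values of 4.68, 6.16 and 3.86 TPM and SFL values of 8.98, 16.8 and 26.1 TPM (log2 fold change 1.54 ± 0.38, limma adjusted p = 0.0209). SERPINB8 and serpinb1l2 kept their call in all 17 alternative settings, while serpinb1l3 lost it when any of the CFL libraries or SFL replicate 2 was left out (limma adjusted p up to 0.0711). furina, a copy of furin, was also higher in SFL (log2 fold change 2.03, limma adjusted p = 0.00664), at 64.7 to 140 TPM against 16.4 to 34.3 TPM in CFL. The other copy, furinb, was at 6.45 to 7.72 TPM in CFL and 3.48 to 8.64 TPM in SFL, with overlapping libraries (log2 fold change -0.28, limma adjusted p = 0.485). serpinb1l2 and serpinb1l3 carry symbols of 1 family and may share reads, so the split between them is uncertain.

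The largest log2 fold change on log2(TPM + 1) belonged to a carboxypeptidase, while with a pseudocount of 0.1 that of adamts15a was larger in size (-8.56 against 6.24 for CPA1). CPA1 (ENSAMXG00000011639), named after a digestive enzyme of the exocrine pancreas, had 7.95, 6.16 and 5.28 TPM in the CFL libraries against 379, 541 and 569 TPM in the SFL libraries. It ranked 8794 among all genes in CFL and 289 in SFL, 76.8-fold higher in the mean (log2 fold change 6.05 ± 0.23, limma adjusted p = 2.25e-05), and was called in all 17 alternative settings. The table has 2 further genes of this symbol, at 0.11 TPM or less and at 0.40 to 2.43 TPM. Their sequences were not compared, and if the copies share reads, these could be divided differently. Other genes of the exocrine pancreas were near 0. Of 12 pancreatic acinar marker genes in the table, 10 were below 1 TPM in every library, ptf1a and rbpjl, the transcription factors of that cell type, were listed at 0 in all 6, and the whole list summed to 1.35 to 2.05 TPM in CFL and 3.65 to 6.31 TPM in SFL. Its only called gene was ela3l, an elastase, with 0.04 to 0.13 TPM in the CFL libraries against 2.79 to 5.33 TPM in the SFL libraries. prss1 (ENSAMXG00000036049) of the same list ran the other way, at 1.03 to 1.71 TPM in CFL and 0.28 to 0.33 TPM in SFL. Its log2 fold change of -0.80 was under the fold threshold (limma adjusted p = 0.00635). cpa6, a carboxypeptidase of the extracellular matrix, had CFL values of 0.01, 0.05 and 0.02 TPM and SFL values of 0.90, 1.65 and 0.91 TPM (log2 fold change 1.05 ± 0.15, limma adjusted p = 0.00291), and fell under the fold threshold at 0.89 without SFL replicate 2.

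Of 10 transmembrane serine proteases, 9 stayed below 1 TPM in every library. The exception, tmprss2 (ENSAMXG00000043741), an epithelial protease, had 1.75, 6.91 and 16.9 TPM in the CFL libraries against 57.9, 13.1 and 22.3 TPM in the SFL libraries. It ranged 9.69-fold within CFL and 4.41-fold within SFL, CFL replicate 3 lay above SFL replicate 2, and the log2 fold change of 1.88 ± 0.77 (limma adjusted p = 0.103) was not past the threshold in any of the 17 alternative settings.

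Genes that work with these proteases were counted from lists of related symbols. Over all tested genes, 11.7% were called for SFL and 8.88% for CFL, which is the background for the counts of these lists and of the marker lists. In the plasmin system list, 3 of 16 tested genes were called for SFL and 2 for CFL. Plasminogen itself (plg) was at 0.16 TPM or less in all libraries, while genes of its docking sites on the cell surface were abundant. Of these, s100a10b was at 410 to 609 TPM in CFL and 455 to 609 TPM in SFL (log2 fold change 0.07, limma adjusted p = 0.826). plgrkt was at 211 to 374 TPM in CFL and 83.3 to 233 TPM in SFL, also with overlap (-0.80, limma adjusted p = 0.175). s100a10a measured 967 to 1586 TPM over the CFL libraries and 1778 to 2115 TPM over those of SFL and was not called (0.67, limma adjusted p = 0.056). Its partner anxa2a was called higher in SFL, with 508 to 605 TPM in the CFL libraries against 1034 to 1261 TPM in the SFL libraries (log2 fold change 1.1, limma adjusted p = 0.00337). lrp1ab, a receptor that clears serpin complexes, was also higher in SFL (log2 fold change 1.06, limma adjusted p = 0.0308), as was HGFAC, the protease that activates hepatocyte growth factor (2.50, limma adjusted p = 0.0139). f9b (-1.70, limma adjusted p = 0.0002) and hgfb (-1.19, limma adjusted p = 0.0291) were higher in CFL.

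Among other pericellular serine proteases and Kunitz inhibitors, 5 of 16 tested genes were called for SFL and 2 for CFL. Both copies of HTRA1, a secreted serine protease of the matrix, were higher in CFL. htra1b had 55.8, 36.0 and 25.5 TPM in the CFL libraries against 0.02, 0.61 and 0.48 TPM in the SFL libraries (log2 fold change -4.83, limma adjusted p = 0.000135), and htra1a had 19.2 to 38.9 TPM in the CFL libraries against 0.77 to 5.36 TPM in the SFL libraries (-3.08, limma adjusted p = 0.0041). htra3a, PRSS23 and the Kunitz inhibitors tfpi2 and spint2 were among those higher in SFL. tfpi2 had CFL values of 21.7, 32.3 and 8.94 TPM and SFL values of 170, 85.8 and 61.8 TPM (2.32, limma adjusted p = 0.0163).

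The metalloprotease regulators and processing enzymes gave 2 calls for SFL and 4 for CFL among 22 tested genes. The most abundant, bsg, which induces MMPs in neighbouring cells, was at 874 to 927 TPM in CFL and 1015 to 1290 TPM in SFL (log2 fold change 0.35, limma adjusted p = 0.134). reck, a membrane-anchored MMP inhibitor, had 58.8, 59.7 and 99.4 TPM in the CFL libraries against 4.15, 13.8 and 20.8 TPM in the SFL libraries (log2 fold change -2.59, limma adjusted p = 0.0109). ece1, a metalloprotease that matures endothelin, measured 225 to 238 TPM over the CFL libraries and 23.4 to 80.2 TPM over those of SFL (-2.24, limma adjusted p = 0.00804), and the procollagen protease tll1 was at 1.49 to 2.58 TPM in CFL and 0.05 TPM or less in SFL (-1.61, limma adjusted p = 0.000682). itgb8, an integrin subunit that frees TGF-beta from its latent form, had 27.4, 19.5 and 28.3 TPM in the CFL libraries but no more than 0.89 TPM in SFL (-4.27, limma adjusted p = 0.000123). tspan5a, a tetraspanin whose mammalian counterpart carries ADAM10 to the membrane, had CFL values of 7.92, 7.24 and 19.6 TPM and SFL values of 135, 97.2 and 111 TPM (3.32, limma adjusted p = 0.00102). The other copy, tspan5b, was lower in every SFL library (3.03 to 4.07 TPM) than in any CFL library (6.45 to 7.04 TPM), at a log2 fold change of -0.82 under the fold threshold (limma adjusted p = 0.0137). tspan14 and tspan17, further partners of ADAM10 in mammals, were at 0.18 (limma adjusted p = 0.764) and -0.07 (limma adjusted p = 0.881). The tetraspanin genes tspan15 and tspan33a were low, with all SFL libraries above those of CFL, and were not called. tspan15 was at 0.11 to 0.74 TPM in CFL and 0.84 to 1.99 TPM in SFL (0.76, limma adjusted p = 0.0585). tspan33a was at 0.02 to 0.18 TPM in CFL and 0.32 to 3.50 TPM in SFL (1.04, limma adjusted p = 0.0988). A list of cathepsins, legumain, calpains (which are cytosolic) and cystatins had 8 of 29 tested genes called for SFL, 1 of them the calpain capn1b, and 1 for CFL, led in SFL by lgmn at 630.9 to 1094 TPM against 78.6 to 179 TPM in CFL (2.89, limma adjusted p = 0.00145) and ctsa at 479.8 to 613 TPM against 72.2 to 104 TPM (2.66, limma adjusted p = 0.000208). ctsba (1.77, limma adjusted p = 0.00336) and ctsk, the collagen-cutting cathepsin K (1.19, limma adjusted p = 0.0188), were higher in SFL too, while cst3, the inhibitor cystatin C and the most abundant of the list, had 384, 454 and 777 TPM in the CFL libraries against 1095, 952 and 3328 TPM in the SFL libraries and missed the threshold (1.56, limma adjusted p = 0.0565). The call for CFL was a ctsz gene (ENSAMXG00000033941), at 16.1 to 23.7 TPM in CFL and 8.68 to 10.6 TPM in SFL (-1.02, limma adjusted p = 0.0104). The other ctsz genes also had lower means in SFL and were not called. The abundant ctsla (ENSAMXG00000042927) had overlapping libraries (0.20, limma adjusted p = 0.638).

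Variation inside SFL was wide in these genes. Over the 43 genes with a mean of at least 1 TPM, the median SD of log2(TPM + 1) within a line was 0.281 in CFL and 0.580 in SFL, where all 14189 genes of that level had 0.183 and 0.320. SFL replicate 3 was the highest SFL library in 33 of the 43 (76.7%, against 42.1% of all genes), and SFL replicate 1 the lowest in 31 (72.1%, against 43.4%). In 16 of the 43 (37.2%), SFL replicate 3 lay at least 2-fold above the mean of the other SFL libraries on the log2(TPM + 1) scale, against 8.75% of all genes. These 16 were timp2a, mmp11b, adamtsl3, mmp14b, adamts6, mmp14a, mmp28, ADAMTS7, plat, MMP16, mmp9, serpina10a, adamts10, adam28, serpinb1l3 and adam19a. Only 3 genes lay as far below, which were mmp13b, adamts3 and serpine3. The mean that selects genes here includes SFL replicate 3. Through that library alone, mmp11b, adamtsl3, adamts10 and ADAMTS7 reached a mean of 1 TPM, so the filter favours their place among the 16. The same filter was used for all genes. SFL replicates 2 and 3 carry the same passage number, so passage does not separate them. The stellate cell and fibroblast markers summed to 3363, 2616 and 6969 TPM in SFL replicates 1, 2 and 3, with tagln the most abundant at 2543, 1108 and 4239 TPM. In the same order, acta2 was at 31.1, 73.9 and 150 TPM, col1a1a at 194, 260 and 386 TPM and pdgfrb at 0.26, 0.75 and 1.41 TPM. Not all markers of the list were highest in SFL replicate 3, as lrata was at 4.54, 1.17 and 0.86 TPM and pdgfra at 1.47, 0.43 and 1.19 TPM. The part of these markers in the protease values was not tested. Of 15 endothelial markers, kdr was at 4.77, 36.3 and 154 TPM in these libraries and kdrl at 75.8 to 88.9 TPM, while cdh5 and pecam1 were at 0.02 TPM or less and 12 were below 1 TPM in all 6 libraries.

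**Figure D4:**
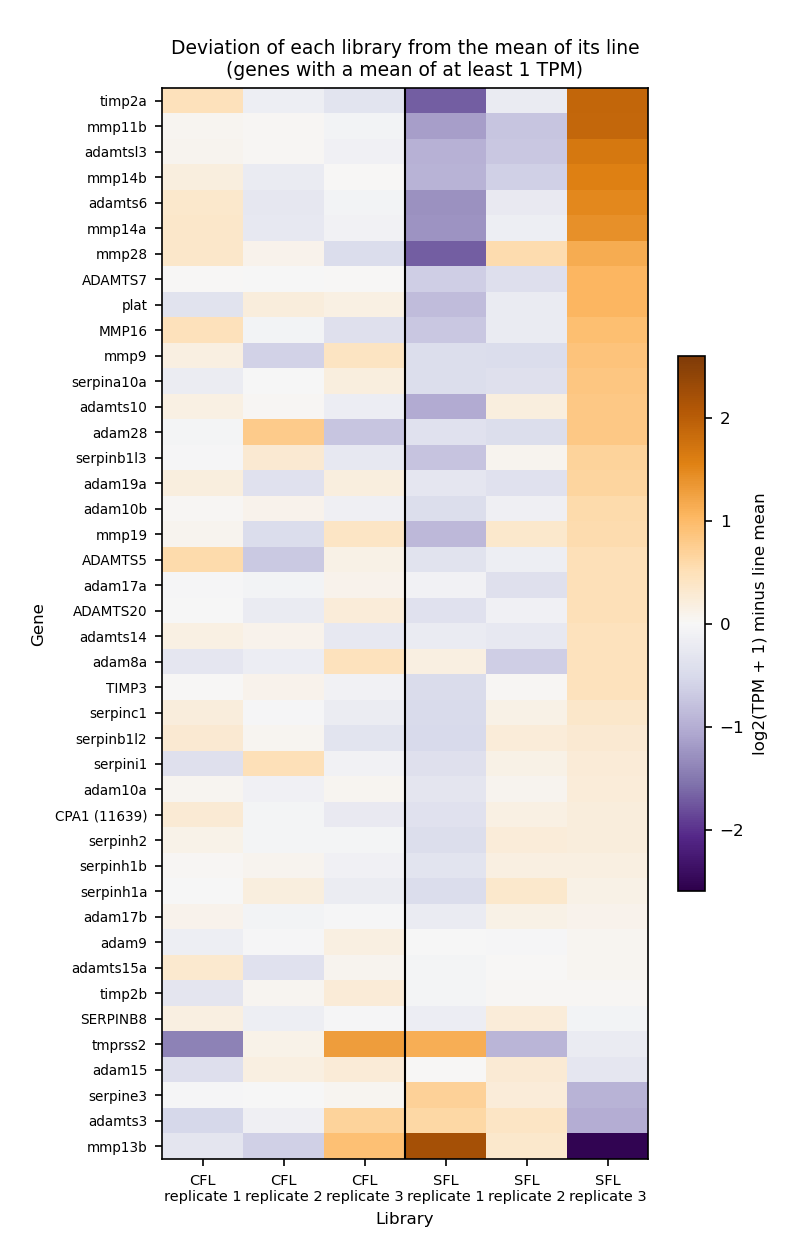
Deviation of each library from the mean of its line, in log2(TPM + 1), for 42 genes with a mean of at least 1 TPM, ordered by how far SFL replicate 3 lies above the other SFL libraries. Orange is above and purple below the line mean; the SFL columns are darker than the CFL columns, with timp2a at the top and mmp13b, at 3.52 TPM in SFL replicate 3 and 120 TPM in SFL replicate 1, at the bottom.

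The a and b copies of a gene were expressed unequally, and in the adam10, adam17, adam19, mmp14, serpinh1 and timp2 pairs the same copy prevailed in both lines. In the adamts15 genes the a copy prevailed in CFL, while in SFL all copies were at 0.08 TPM or less and their shares are not informative. The a copy held 82.8% to 91.3% of the TPM of the adam10 pair, 65.0% to 79.2% of the adam17 pair, 99.0% to 99.7% of the adam19 pair and 71.0% to 80.8% of the mmp14 pair over the 6 libraries. In the timp2 pair the b copy prevailed throughout. RSEM divides reads that copies share, so small shares are uncertain. Of the genes of the set, 64 were matched by symbol to RefSeq's AstMex3_surface assembly, used only for the order of genes, where adamts15a lies next to adamts8a and serpinf2a next to serpinf1 with 0 protein-coding genes between. These neighbours were low in both lines: adamts8a had 0.14 to 0.34 TPM in the CFL libraries against 0.18 to 1.26 TPM in the SFL libraries, and serpinf1 was at 0.01 TPM or less in all libraries. Genes this low can hardly show a shared difference, and an effect shared by neighbours was not tested.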

How the data were processed

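RNA-seq was done on 3 SFL and 3 CFL libraries (stranded poly(A) kit, single reads). The methods speak of tissue RNA, while the paper's results report transcriptomes of the cell lines and the library names describe cell lines. The libraries are therefore described as lines here, with the p numbers of their names read as passages. The authors aligned reads with STAR 2.7.3a to a UCSC genome, whose assembly is not given in the sources used here, with Ensembl gene models, and deposited 1 TPM table that the authors made with RSEM. Its columns carry no stated scaling between libraries and no counts, so depth is unknown and the authors' count test could not be repeated.

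Here log2(TPM + 1) of the 18489 genes reaching 0.2 TPM in 1 or more libraries was compared with limma 3.58.1 (lmFit, eBayes with trend) in R 4.3.3, without a block, with Benjamini-Hochberg adjustment, with calls made where the fold change reached 2 and the adjusted p lay under 0.05. This fit was also run on simulated TPM with normal noise, which does not cover counting error or an outlying library. Summaries used Python 3.11.15 and pandas 2.3.3. The genes and lists were chosen with earlier results of these data known. The text names genes that were called with libraries apart, the 20 most abundant, the most abundant of each role, those at 1 TPM or more in all libraries of only 1 line, copies of these, and from each related list the called genes (at most 5) and the most abundant. Other genes named (among them the remaining MMPs, adam11, adam12, adam22, adam23a, adamts1, adamts3, adamts6, adamts9, timp4.3, plaua, serpine2, serpini1, serpinf2a, adamts8a, plg, plgrkt, s100a10b, furina, furinb, capn1b, ctsz, ctsla, tspan5b, tspan14, tspan15, tspan17, tspan33a, f2, f10 and the marker genes) were chosen after their values were seen. 1 gene of the set is in the counts but not reported here. Alternatives were pseudocounts of 0.1 and 0.5, no filter, 1 TPM in 3 libraries, median-ratio scaling, no trend, the replicate block, the later passages alone, no fold threshold, limma's treat, an adjusted p of 0.01 and each library left out.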

Additional observations from a re-analysis of the deposited data

How the results depend on the processing

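The calls of the set depended most on how low TPM and the fold threshold were treated. The 12 genes higher in SFL and 4 higher in CFL became 16 and 9 with a pseudocount of 0.1, 13 and 7 with a pseudocount of 0.5, 14 and 11 with no fold threshold, 5 and 2 with treat against a fold change of 2, and 12 and 2 with the later passages alone. Leaving out 1 library at a time, the SFL count went from 10 to 14 and the CFL count from 4 to 7. Over all genes the SFL count was 2168 and the CFL count 1642, with 3187 and 2492 at a pseudocount of 0.1, 3610 and 2808 with no fold threshold, and 638 and 538 with treat. The absent fold threshold and treat change the rule for a call itself, fewer libraries enter with the later passages alone, and the cause of the other shifts was not tested.

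Log2 fold changes near 0 changed sign: with median-ratio scaling mmp14a was at -0.06 and mmp14b at -0.02, and with the later passages alone timp2a was at 0.61. With 1 library left out in turn, mmp14a went from -0.65 to 0.67, mmp14b from -0.71 to 0.56, timp2a from -1.43 to 0.37, mmp28 from -0.34 to 1.08, mmp13b from -2.02 to 0.36 and adamtsl3 from -0.01 to 1.31. None of these 6 genes was called in the comparison of all libraries.

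The replicate numbers did not pair the libraries. Deviations from the line means of same-numbered libraries correlated at -0.225, 0.078 and -0.0743 across genes, and not every library correlated best with its own number. With the replicate block, the set had 12 SFL calls and 4 CFL calls, and all 16 were called again. Of the 99 genes, 37 did not pass the filter on low TPM, and with no filter the calls numbered 10 and 4.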
